A study of Homo sapiens with 3 samples.

Results

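The genes described here encode subunits of the TIP60/NuA4, SAGA/ATAC, MOZ/HBO1/MSL and CBP/p300 acetyltransferase complexes. They were chosen by name, as 42 gene symbols, and every single guide RNA (sgRNA) whose deposited name starts with such a symbol was taken. This gave 408 sgRNAs, of the 189398 sgRNAs against 20381 genes that were seen in the libraries. TIP60/NuA4 held 18 genes with 172 sgRNAs, SAGA/ATAC 14 genes with 136, MOZ/HBO1/MSL 8 genes with 80 and CBP/p300 2 genes with 20. All 42 genes were found and all 42 were tested in each comparison.

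Pooled CRISPR knockout screening was used to find genes that control cell-surface HLA-B, a class I molecule of the major histocompatibility complex (MHC-I), in K562 cells, an established leukaemia line with little surface MHC-I. All cells carried Cas9 and the same genome-wide lentiviral library, delivered with 0.3 infectious particles per cell, and were selected with puromycin (1 μg/mL for 72 h, from 48 h after transduction). Cells were pulsed with interferon-γ (IFN-γ), an inducer of MHC-I, for 24 h before the sort. The HLA-B high sorted library came from cells of the high screen (1 ng/mL IFN-γ), sorted for high HLA-B on days 18 and 25. The high-screen pool was the unsorted pool of that screen, and the low-screen pool was the unsorted pool of a second screen at 25 ng/mL. There was 1 library per group, and the spread between replicates is therefore unknown for every value. The labels give no harvest day for the unsorted pools, and the title and the deposited name of the low-screen pool disagree on the antibody of its screen. Read counts of sgRNAs carry no gene expression, so the identity of the cells could not be checked from them. The cells were a mutagenised pool, not clones, and whether any sgRNA cut its target was not measured.

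Lysine acetyltransferases add acetyl groups to histone tails, loosen the contact between histones and DNA and create sites that bromodomain proteins read. TIP60/NuA4 acetylates histones H4 and H2A and exchanges the histone variant H2A.Z, SAGA and ATAC acetylate histone H3 through KAT2A or KAT2B, and the MYST enzymes KAT6A, KAT6B, KAT7 and KAT8 work with small reader subunits. CREBBP and EP300 are large coactivators that acetylate H3K27 at enhancers and promoters and are recruited by many transcription factors, among them those activated by interferon.

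The sorted library held 34266318 matched reads, the high-screen pool 22562241 and the low-screen pool 98426251. At least 1 read was found for 178 of the 408 sgRNAs in the sorted library, against 401 of them in the high-screen pool and 376 in the low-screen pool. The background is given by safe-targeting sgRNAs, directed at sites without known function, and by non-targeting sgRNAs, which match no genomic site. In the sorted library 56.4% of the acetyltransferase sgRNAs were absent (exact 95% interval 51.4 to 61.2), against 50.8% of all gene-targeting, 49.6% of safe-targeting and 36.3% of non-targeting sgRNAs. The share absent was 62.8% for TIP60/NuA4, 48.5% for SAGA/ATAC, 62.5% for MOZ/HBO1/MSL, and 6 of 20 sgRNAs were absent for CBP/p300. An sgRNA with no read could have had up to 0.0875 CPM (matched reads scaled to a total of 1000000) in the sorted library. Because many sgRNAs of every class were lost, log2 ratios in the sorted library lay far below 0 for most sgRNAs, and each value is read against the safe-targeting and gene-targeting sgRNAs.

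Between the HLA-B high sorted library and the high-screen pool, sgRNAs against 2 of the 42 genes, MRGBP and EPC2, were enriched, and none of the 42 was depleted. Both belong to TIP60/NuA4. Genes were scored by redundant siRNA activity (RSA), which orders every sgRNA by log2 ratio and gives each gene its smallest hypergeometric p along that order. A call needed an RSA p under 0.001 and no fewer than 4 of the gene's sgRNAs up to the rank of that p (the best rank). Over the whole library 0.532% of 20314 tested genes were called enriched and 0.418% depleted. The RSA score was also set against its exact null and adjusted over all genes by the Benjamini-Hochberg method (exact adjusted p). By this stricter value none of the 42 genes passed 0.05 in either direction, beside 0.0541% of all genes for enrichment and 0.00492% for depletion, with 3 at an unadjusted exact p under 0.05 for enrichment (EPC2, MRGBP and SUPT3H) and 1 for depletion (VPS72). The unadjusted background was 5.24% of all genes for enrichment and 5.68% for depletion. All p values are one-sided, and they compare sgRNAs of 1 gene within these libraries, not conditions.

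Per sgRNA, 58 of 375 testable sgRNAs had a log2 ratio above 1, which is 15.5% (exact 95% interval 12.0 to 19.5). The same share was 12.6% of all gene-targeting, 11.7% of safe-targeting and 15.8% of non-targeting sgRNAs. By family it was 14.7% for TIP60/NuA4, 15.1% for SAGA/ATAC, 14.7% for MOZ/HBO1/MSL and 27.8% for CBP/p300, where it rests on 5 of 18 sgRNAs and its interval spans 9.69 to 53.5%. The interval of each family included the share over all gene-targeting sgRNAs. A log2 ratio below -1 was found for 71.2% of the 375 sgRNAs and for 70.8% of all gene-targeting sgRNAs. The median log2 ratio was -4.96 over the 375 sgRNAs and -4.64 over all gene-targeting sgRNAs. Of the 375, 53.6% had no sorted read, and the size of their ratio is set by the pseudocount and the control reads. With a pseudocount of 5 in place of 1 the median was -2.99 instead of -5.10 for TIP60/NuA4 and -3.30 instead of -5.28 for MOZ/HBO1/MSL. By gene, 3 of 42 medians lay above 0 (MRGBP, EPC2 and SUPT3H), beside 2.81% of all genes. At least 4 sgRNAs passed a log2 ratio of 1 for 4 of the 42 genes (MRGBP, EPC2, SUPT3H and TADA2B), beside 2.02% of all genes.

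**Figure D1:**
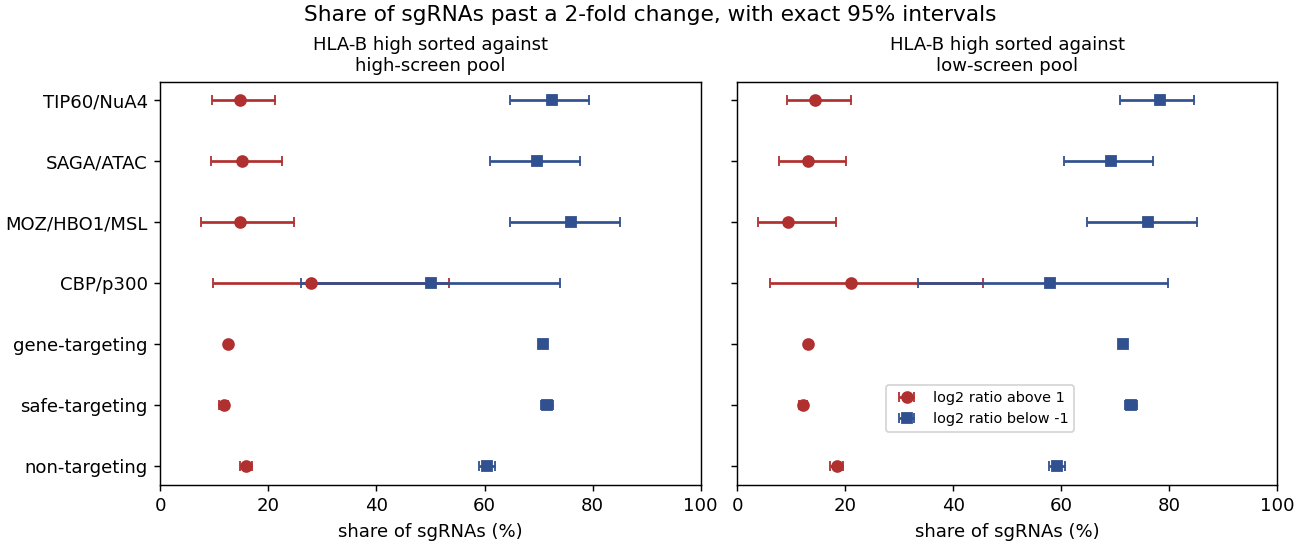
Share of sgRNAs (x axis, %) with a log2 ratio above 1 (red circles) or below -1 (blue squares) for each acetyltransferase family and for all gene-targeting, safe-targeting and non-targeting sgRNAs, with exact 95% intervals as bars, for the sorted library against the high-screen pool (left) and the low-screen pool (right). Against the high-screen pool the red points of TIP60/NuA4, SAGA/ATAC and MOZ/HBO1/MSL sit between 14.7 and 15.1%, beside 12.6% for gene-targeting sgRNAs, and the CBP/p300 bar is the widest.

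MRGBP (ENSG00000101189; GRCh37, chromosome 20, 61427825 to 61433081, plus strand) encodes the MRG-binding protein that ties the chromodomain subunit MORF4L1 to TIP60/NuA4. In order of guide number its 10 sgRNAs had 48, 0, 0, 2137, 445, 112, 2193, 1017, 0 and 1006 reads in the sorted library. The same sgRNAs had 64, 15, 96, 95, 50, 46, 30, 114, 70 and 92 reads in the high-screen pool. The sorted reads were thus split between 3 sgRNAs with no read, 2 with 48 and 112 reads and 5 with 445 or more. Those 5 had log2 ratios of 3.88, 2.53, 5.55, 2.55 and 2.84, and the remaining 5 ran between -6.93 and 0.67. Summed over its sgRNAs, MRGBP had 203 CPM in the sorted library (exact 95% interval 198 to 208), against 29.8 CPM in the high-screen pool (27.6 to 32.1), a 6.82-fold higher level. No sgRNA held more than 31.5% of its sorted reads. The RSA p was 2.24e-05 with 5 sgRNAs at the best rank, and the exact adjusted p was 0.204. Without its highest sgRNA, and with the same done for every gene, the RSA p of MRGBP was 2.80e-04 and the call stood.

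EPC2 (ENSG00000135999; GRCh37, chromosome 2, 149402009 to 149545138, plus strand) encodes a homolog of the fly Enhancer of Polycomb, which holds the catalytic module of TIP60/NuA4 together. Its 10 sgRNAs had 348, 360, 910, 0, 249, 0, 339, 202, 0 and 773 reads in the sorted library. They had 185, 81, 139, 163, 115, 16, 58, 70, 75 and 183 reads in the high-screen pool. Thus 3 EPC2 sgRNAs were lost from the sorted library, and all 7 that were kept had a log2 ratio above 0, between 0.31 and 2.10. The summed level was 92.8 CPM in the sorted library (89.6 to 96.1) and 48.1 CPM in the high-screen pool (45.3 to 51.0), a 1.93-fold higher level. The RSA p was 4.81e-04 with 7 sgRNAs at the best rank, and the exact adjusted p was 0.854. Without the highest sgRNA of each gene the RSA p of EPC2 was 0.00187 and the call was lost.

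**Figure D2:**
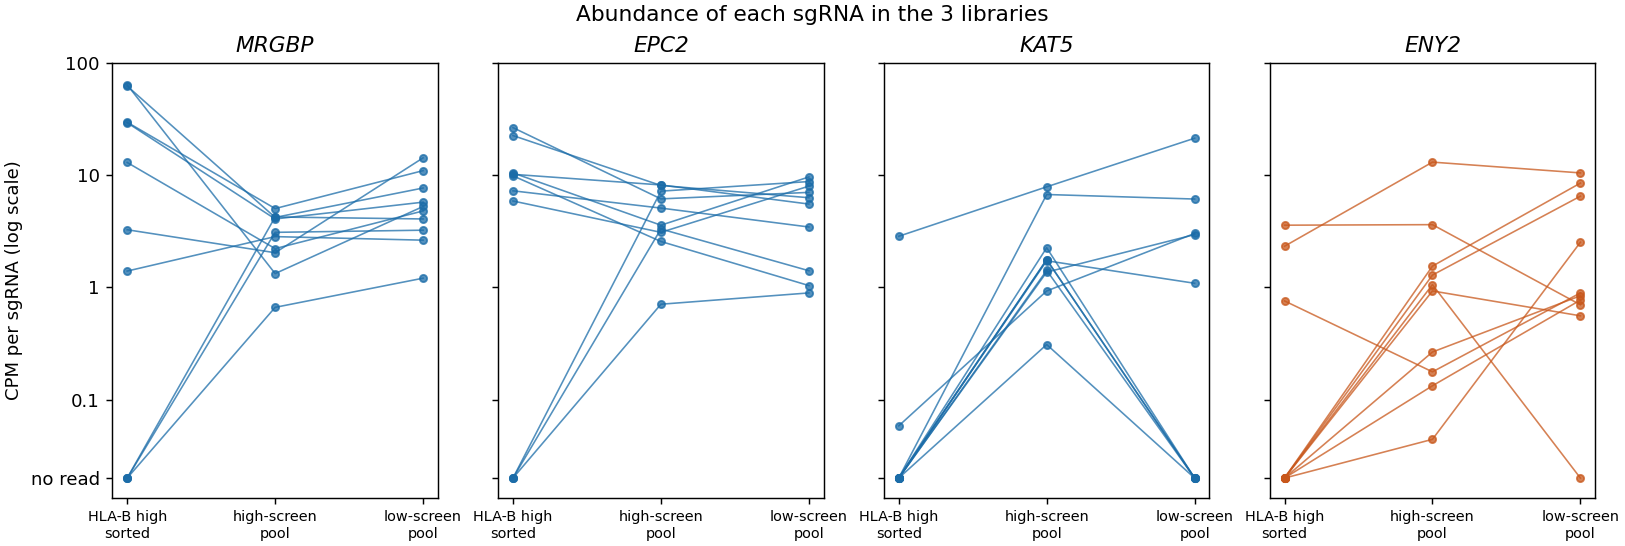
Abundance of each sgRNA (points joined by a line, 1 line per sgRNA; y axis, CPM on a log scale, with sgRNAs that had no read drawn at the bottom) against MRGBP, EPC2, KAT5 and ENY2 in the sorted library, the high-screen pool and the low-screen pool. For MRGBP 5 lines stand above 10 CPM in the sorted library and 3 end at no read. For KAT5, 5 sgRNAs seen in the high-screen pool had no read in the low-screen pool.

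The other genes of the TIP60/NuA4 catalytic module were not called in the sort. KAT5, the acetyltransferase itself, had 2 sgRNAs with any sorted read (2 and 98 reads) and a summed level of 2.92 CPM in the sorted library, against 26.2 CPM in the high-screen pool. All 9 of its testable sgRNAs had a log2 ratio below -1, with a median of -5.65 and a depletion RSA p of 0.0280. EPC1, the paralog of EPC2, had 49.1 CPM in the sorted library and 20.3 CPM in the high-screen pool, but 97.9% of its sorted reads came from 1 sgRNA and the median log2 ratio was -5.13. ING3, which reads methylated H3K4, MEAF6, a small subunit shared with the MYST complexes, and MBTD1, which reads methylated H4K20, had gene medians between -5.61 and -4.31.

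The MRG proteins that MRGBP binds had no sgRNA above a log2 ratio of 1. MORF4L1, the chromodomain reader of methylated H3K36, had 6 of 8 sgRNAs below -1 and a summed level of 11.0 CPM in the sorted library, against 31.3 CPM in the high-screen pool. Its paralog MORF4L2 had 0.554 CPM in the sorted library (0.334 to 0.866) and 21.1 CPM in the high-screen pool (19.3 to 23.1), with all 9 testable sgRNAs below -1 and a depletion RSA p of 0.0184. BRD8, the bromodomain subunit, had an enrichment RSA p of 0.0195 and a median of -0.04, and 2 of its 8 sgRNAs passed 1. The scaffold subunits EP400, an ATPase, and TRRAP, which docks transcription activators and is shared with SAGA, had medians of -4.40 and -4.91, with 1 and 2 sgRNAs above 1.

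The module that TIP60/NuA4 shares with H2A.Z remodellers lay lowest within the complex. Of its 48 testable sgRNAs, 85.4% had a log2 ratio below -1 (exact 95% interval 72.2 to 93.9), beside 70.8% of all gene-targeting sgRNAs, and the median was -5.65. These sgRNAs come from 6 genes, and the interval treats them as independent and does not cover clustering by gene. VPS72, a chaperone of H2A.Z, had 40 reads on 1 of 10 sgRNAs and no read on the other 9 in the sorted library, and 16, 2, 58, 76, 39, 25, 94, 224, 125 and 27 reads in the high-screen pool. Its depletion RSA p of 0.00802 was the smallest of the family and did not reach the call. ACTL6A, an actin-related subunit, likewise had reads on 1 sgRNA (42 reads), and all 6 of its testable sgRNAs were below -1. The AAA+ ATPases RUVBL1 and RUVBL2, the acetyl-lysine reader YEATS4 and DMAP1 had medians between -5.93 and -5.34. In DMAP1 a single sgRNA with 2000 sorted reads held 97.9% of the gene's sorted reads, and in RUVBL1 a single sgRNA with 906 held 99.8%.

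**Figure D3:**
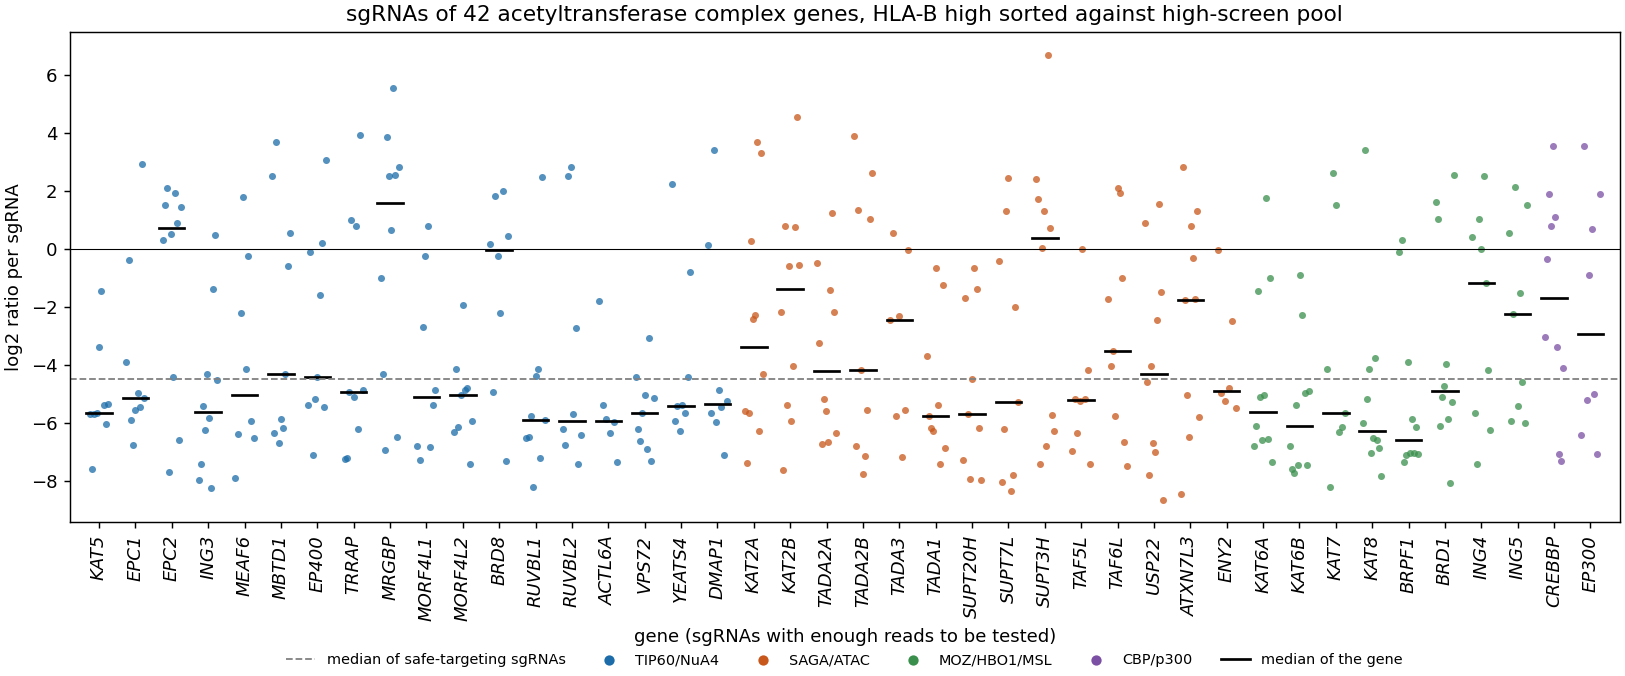
Log2 ratio of each testable sgRNA (points; y axis) in the sorted library against the high-screen pool for the 42 genes (x axis), coloured by family, with the gene's median as a black bar and the median of safe-targeting sgRNAs as a dashed line. Most points lie near or below the dashed line at -4.49, and the bars of MRGBP (1.60), EPC2 (0.71) and SUPT3H (0.40) lie above 0.

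In SAGA/ATAC none of the 14 genes was called in the sort in either direction. SUPT3H, a histone-fold subunit of the SAGA core, came nearest to enrichment, with an RSA p of 0.00222. Its 10 sgRNAs had 402, 813, 0, 88, 360, 0, 2663, 105, 0 and 0 reads in the sorted library, and 49, 162, 134, 56, 96, 87, 16, 41, 41 and 60 reads in the high-screen pool. The summed level was 129 CPM in the sorted library and 32.9 CPM in the high-screen pool. Of these sorted reads 60.1% came from 1 sgRNA, which alone set the best rank. Of the acetyltransferases, KAT2A had 160 CPM in the sorted library (156 to 164) and 48.4 CPM in the high-screen pool (45.6 to 51.4), and KAT2B had 66.6 CPM (63.9 to 69.4) and 36.3 CPM (33.9 to 38.9). KAT2A's sorted reads rested on 2 sgRNAs, with 2367 and 2725 reads, while 7 of its 10 sgRNAs were below -1, and its enrichment RSA p was 0.0143. KAT2B had 1 of 10 sgRNAs above 1, with a median of -1.38.

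Among the adaptors that bind KAT2A and KAT2B, the SAGA-specific TADA2B had 4 of 9 sgRNAs above 1 and 5 below -1, with an RSA p of 0.0171. Its ATAC counterpart TADA2A had 1 of 10 above 1, and TADA3, present in both complexes, had 0 of 7. The core subunits TADA1, SUPT20H and TAF5L had no sgRNA above 1 and medians of -5.75, -5.69 and -5.21, whereas TAF6L and SUPT7L had 2 each. SUPT7L had the smallest depletion RSA p of the family, 0.0128, with 59.1 CPM in the sorted library and 57.1 CPM in the high-screen pool. In the module that removes ubiquitin from histone H2B, the protease USP22 had 1 of 10 sgRNAs above 1, its cofactor ATXN7L3 had 2 of 10 and the small adaptor ENY2 had 0 of 6. Gene medians of the family thus lay between 0.40 for SUPT3H and -5.75 for TADA1, and 13 of the 14 were below 0.

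No MOZ/HBO1/MSL gene was called in the sort in either direction. Of the 4 enzymes, KAT6A, KAT6B and KAT8 had lower summed levels in the sorted library and KAT7 a higher one. KAT6A had 21.1 CPM in the sorted library and 40.5 CPM in the high-screen pool, and its paralog KAT6B had 8.81 CPM (7.85 to 9.87) and 53.6 CPM (50.6 to 56.7). KAT7, the enzyme of HBO1, had 49.1 CPM in the sorted library and 37.5 CPM in the high-screen pool, and KAT8, the enzyme of MSL, had 11.8 and 28.5 CPM. All KAT8 reads in the sorted library came from 1 of 10 sgRNAs (406 reads), and 72.1% of those of KAT7 from 1 sgRNA. Of the 37 testable sgRNAs against the 4 enzymes, 83.8% were below -1 (exact 95% interval 68.0 to 93.8), an interval that includes the 70.8% of all gene-targeting sgRNAs. The smallest depletion RSA p was 0.0139, for KAT6B.

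Their partners were more spread. BRPF1, the scaffold of KAT6A and KAT6B, had the lowest median of the 42 genes, -6.58, with reads on 2 sgRNAs only (168 and 184 reads). BRD1, the scaffold that pairs with KAT7, had 3 of 10 sgRNAs above 1 and 7 below -1. The PHD-finger readers ING4 and ING5 had medians of -1.17 and -2.23, the highest of the family. ING5 had 82.2 CPM in the sorted library and 47.4 CPM in the high-screen pool, with 2 of 9 sgRNAs above 1 and the smallest enrichment RSA p of the family, 0.0247.

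Neither CREBBP nor EP300 was called. CREBBP sgRNAs had 7, 134, 823, 544, 5338, 940, 24, 0, 0 and 4 reads in the sorted library. They had 43, 112, 145, 207, 299, 285, 172, 106, 125 and 57 reads in the high-screen pool. Its summed level, 228 CPM in the sorted library against 68.7 CPM in the high-screen pool, was the highest sorted level of the 42 genes, and 68.3% of it came from 1 sgRNA. With 3 of 10 sgRNAs above 1, 5 below -1 and a median of -1.68, the enrichment RSA p was 0.0325. EP300 had 33.9 CPM in the sorted library and 30.8 CPM in the high-screen pool, with 2 of 8 sgRNAs above 1 and an RSA p of 0.0975.

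In most of the 42 genes the sorted reads rested on few sgRNAs. In 32 genes a single sgRNA held over 50% of the gene's sorted reads, which is 76.2%, beside 69.6% of all genes with sorted reads. Among the 10 exceptions were MRGBP (31.5% on its highest sgRNA) and EPC2 (28.6%).

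Against the low-screen pool, which was deeper but came from the other screen, none of the 42 genes was called by RSA in either direction. Over all genes 0.645% were called enriched and 0.586% depleted. By the exact null 5 genes had an unadjusted p under 0.05 for enrichment (EPC2, MRGBP, DMAP1, KAT2A and SUPT3H) and 6 for depletion (MORF4L2, VPS72, ATXN7L3, KAT6B, KAT8 and BRPF1), beside 5.49% and 5.67% of all genes. The enrichment p of DMAP1 and that of SUPT3H each came from 1 sgRNA, and 6 of 7 DMAP1 sgRNAs were below a log2 ratio of -1. None of the 42 passed 0.05 after adjustment, beside 0.0345% of all genes for enrichment. This comparison shares the sorted library with the one above, so the values stand side by side and are no second observation.

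MRGBP sgRNAs had 260, 119, 402, 758, 473, 1411, 519, 1078, 319 and 567 reads in the low-screen pool, or 60.0 CPM, and the sorted level was 3.38-fold higher. The same 5 sgRNAs had a log2 ratio above 1, but the RSA p was 0.00198, above the limit for a call. EPC2 had 52.1 CPM in the low-screen pool, a sorted level 1.78-fold higher and an RSA p of 0.00305. In ATXN7L3 the depletion RSA p of 4.87e-04 came from 1 sgRNA, with no sorted read and 3054 reads in the low-screen pool, so that the gene was not called. Its other sgRNAs ran up to a log2 ratio of 2.73, and its summed level was 114 CPM in the sorted library and 98.7 CPM in the low-screen pool.

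MORF4L2 and VPS72 were below a log2 ratio of -1 with all 10 of their sgRNAs in this comparison, with depletion RSA p values of 0.00503 and 0.00696. KAT6B, KAT8 and BRPF1 had 9 of 10, 9 of 10 and 7 of 9 sgRNAs below -1. CREBBP had an RSA p of 0.0178, a median of 0.19 and 3 of 9 sgRNAs above 1, and ING5 had an RSA p of 0.0125 and a median of 0.39. KAT2A had the smallest enrichment RSA p in SAGA/ATAC, 0.00409, from 2 sgRNAs. The share of sgRNAs above 1 was 13.3% over the 42 genes (exact 95% interval 10.0 to 17.2) and 13.2% over all gene-targeting sgRNAs.

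Between the unsorted pools, RSA called KAT5 higher and ENY2 lower in the high-screen pool than in the low-screen pool, KAT5 on 4 of its 10 sgRNAs and against its summed level. Over all genes 0.831% were called higher and 0.733% lower. Neither passed 0.05 as an exact adjusted p (0.356 for KAT5 and 0.574 for ENY2). The pools differ in depth, in screen and in the IFN-γ dose of that screen. According to the methods, the low screen was sorted earlier after transduction than the high screen, and unsorted cells were grown in parallel. Time in culture may therefore differ too, and the methods do not state whether unsorted cells received IFN-γ. These differences cannot be told apart here.

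KAT5 lies on chromosome 11 (ENSG00000172977; GRCh37, 65479467 to 65487075, plus strand). Its 10 sgRNAs had 40, 152, 40, 39, 21, 178, 32, 51, 31 and 7 reads in the high-screen pool. In the low-screen pool they had 0, 604, 0, 107, 298, 2106, 0, 0, 291 and 0 reads. The call came from 4 sgRNAs with between 32 and 51 reads in the high-screen pool and none in the low-screen pool, and their log2 ratios were between 6.44 and 7.11. They met the minimum of 10 reads only through the high-screen pool, so the minimum kept them because they were high there. With no minimum the RSA p was 1.19e-04, with 5 sgRNAs that had no read in the low-screen pool. An sgRNA still needed a read in either pool, and these 5 entered through the high-screen pool, so this setting does not remove that selection. Of the other 5 testable sgRNAs 3 were below -1. The summed level was 26.2 CPM in the high-screen pool (24.1 to 28.4) and 34.6 CPM in the low-screen pool (33.5 to 35.8), lower in the high screen, so the summed level and the RSA call run in opposite directions. Without the highest sgRNA of each gene the RSA p was 0.00172, against 1.25e-04 with it, and the call was lost.

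ENY2 sgRNAs had 6, 82, 24, 1, 29, 3, 4, 21, 295 and 35 reads in the high-screen pool. They had 83, 69, 0, 249, 641, 76, 88, 55, 1031 and 839 reads in the low-screen pool. Of the 10 sgRNAs, 6 were below -1 and 2 above 1, and the median log2 ratio of -1.92 was the lowest of the 42 genes. The summed level was 22.2 CPM in the high-screen pool (20.3 to 24.2) and 31.8 CPM in the low-screen pool (30.7 to 32.9). The RSA p was 5.94e-04 with 5 sgRNAs at the best rank, and 0.00363 without the lowest sgRNA of each gene, so that the call was lost.

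Taking the 42 genes as a group, the median log2 ratio between the pools was -0.34 (95% interval -0.50 to -0.20), beside -0.03 over all gene-targeting and -0.16 over safe-targeting sgRNAs. A log2 ratio below -1 was found for 33.8% of the 400 sgRNAs tested (exact 95% interval 29.1 to 38.6), beside 23.7% of all gene-targeting and 25.2% of safe-targeting sgRNAs. Both intervals treat sgRNAs as independent and do not cover clustering by gene. The share above 1 was 19.2%, beside 22.6%. By family the median was -0.39 for TIP60/NuA4, -0.26 for SAGA/ATAC, -0.36 for MOZ/HBO1/MSL and -0.17 for CBP/p300. By gene 13 of 42 medians lay above 0, beside 48.1% of all genes. These sgRNAs were taken from the pools themselves, with no sort between them.

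At an unadjusted exact p under 0.05, RSA scored 3 of the 42 genes as higher in the high-screen pool (KAT5, MEAF6 and RUVBL1). It scored 8 as lower (MRGBP, MORF4L2, YEATS4, DMAP1, TADA1, ENY2, BRD1 and EP300). Over all genes 6.61% reached this limit for higher and 6.29% for lower levels. The p of MEAF6 came from 2 sgRNAs, and 6 of its 9 were below 0. Its summed level was 27.5 CPM in the high-screen pool and 29.7 CPM in the low-screen pool. The p of DMAP1 came from 1 sgRNA, with 3 of its 9 sgRNAs below -1 and 4 above 1. In YEATS4 all 8 sgRNAs were below 0, between -1.36 and -0.21, with an RSA p of 0.00150, and its level was 16.8 CPM in the high-screen pool and 28.7 CPM in the low-screen pool. In BRD1 6 of 10 sgRNAs were below -1, with an RSA p of 0.00296 and levels of 38.0 CPM in the high-screen pool and 61.0 CPM in the low-screen pool. EP300 had 30.8 CPM in the high-screen pool and 60.5 CPM in the low-screen pool, with an RSA p of 0.00559. RUVBL1 ran the other way, with 8 of 9 sgRNAs above 0, 34.2 CPM in the high-screen pool and 14.8 CPM in the low-screen pool. In the low-screen pool, reads were seen for only 7 of 10 RUVBL1 sgRNAs and 7 of 9 MEAF6 sgRNAs. Tested sgRNAs of these genes with no such read met the minimum only through the high-screen pool, so their positive ratios follow from that selection. MRGBP had 29.8 CPM in the high-screen pool and 60.0 CPM in the low-screen pool, an RSA p of 0.00224 and 8 of 10 sgRNAs below 0, so its 6.82-fold and 3.38-fold values in the sort rest on pool levels that differ.

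**Figure D4:**
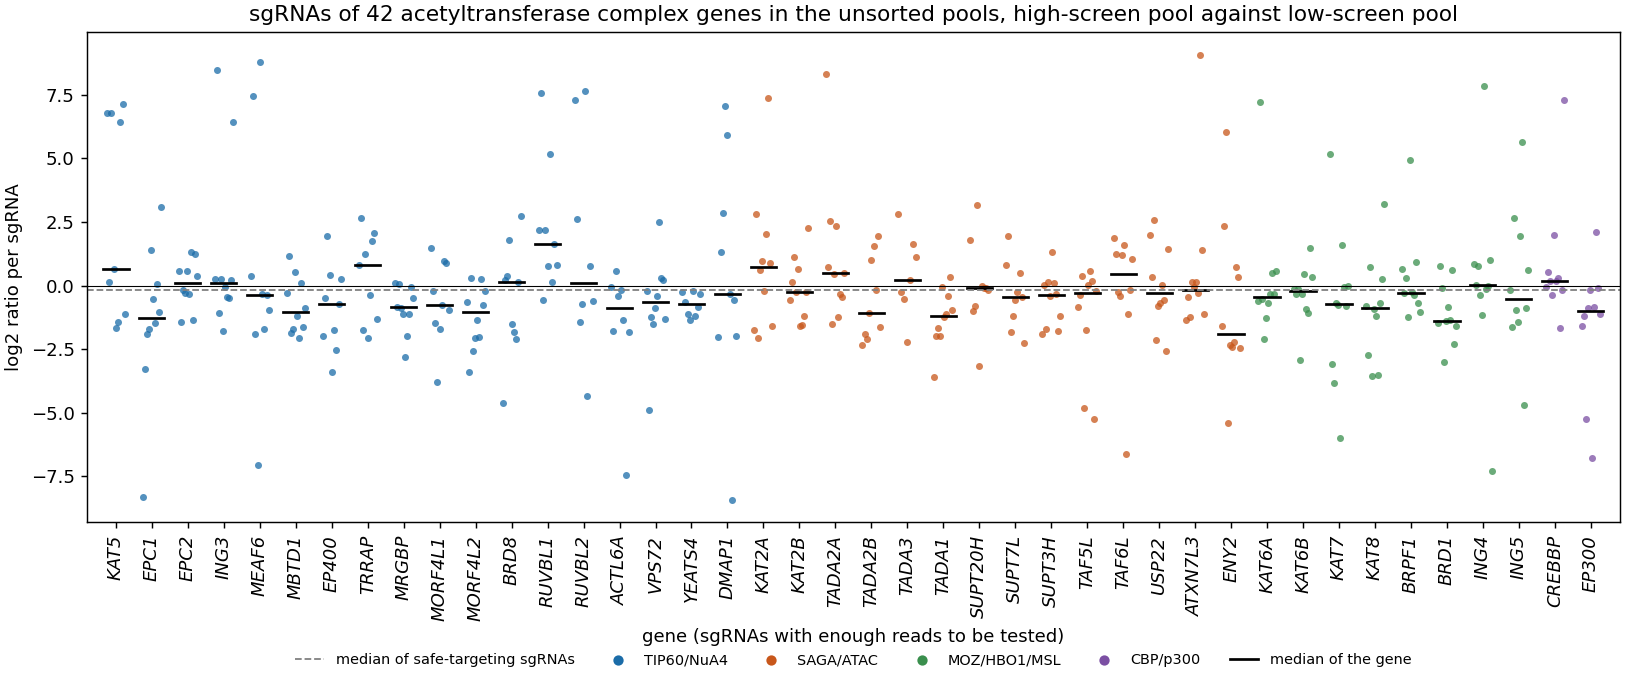
Log2 ratio of each testable sgRNA (points; y axis) in the high-screen pool against the low-screen pool for the 42 genes (x axis), coloured by family, with the gene's median as a black bar and the median of safe-targeting sgRNAs as a dashed line at -0.16. The 4 KAT5 points between 6.44 and 7.11 are sgRNAs with no read in the low-screen pool, and the ENY2 bar at -1.92 is the lowest.

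Levels within a pool were also set against the median safe-targeting sgRNA of the same library (87.0 reads in the high-screen pool and 413 in the low-screen pool). The plasmid library was not used, so a low level is not told apart from a low starting share, and the level is a description. The median TIP60/NuA4 sgRNA stood at 0.552 of that reference in the high-screen pool (95% interval 0.460 to 0.690) and at 0.707 in the low-screen pool (0.574 to 0.860). Both intervals lie below the median gene-targeting sgRNA, which stood at 0.989 and 0.935. They treat sgRNAs as independent and do not cover clustering by gene. The values were 0.902 and 0.960 for SAGA/ATAC, 0.862 and 1.05 for MOZ/HBO1/MSL, and 1.22 and 1.41 for CBP/p300, and their intervals included the gene-targeting value in both pools.

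Within TIP60/NuA4 the median sgRNA of 16 of 18 genes lay below the safe-targeting reference in the high-screen pool and of 15 in the low-screen pool, beside 10181 and 11330 of all 20381 genes. The modules were alike in the high-screen pool, at 0.540 for the catalytic module, 0.517 for the scaffold and 0.540 for the remodelling module, with 0.713 for the MRG proteins and BRD8. EPC2 was an exception, at 1.13 in the high-screen pool and 1.41 in the low-screen pool, while MRGBP stood at 0.770 and 1.20. A level below 0.5 was found for 9 genes in the high-screen pool (KAT5, EPC1, MBTD1, EP400, MORF4L2, ACTL6A, YEATS4, DMAP1 and ENY2), beside 10.7% of all genes, and for 3 in the low-screen pool (KAT5, RUVBL1 and ENY2), beside 11.5%. KAT5 stood at 0.454 in the high-screen pool and 0.130 in the low-screen pool, and ENY2 at 0.259 and 0.207, the only genes of the 42 below 0.5 in both pools. At the other end were ATXN7L3 (1.95 and 1.29), SUPT7L (1.66 and 1.58), CREBBP (1.55 and 1.41) and KAT6B (1.29 and 1.74).

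**Figure D5:**
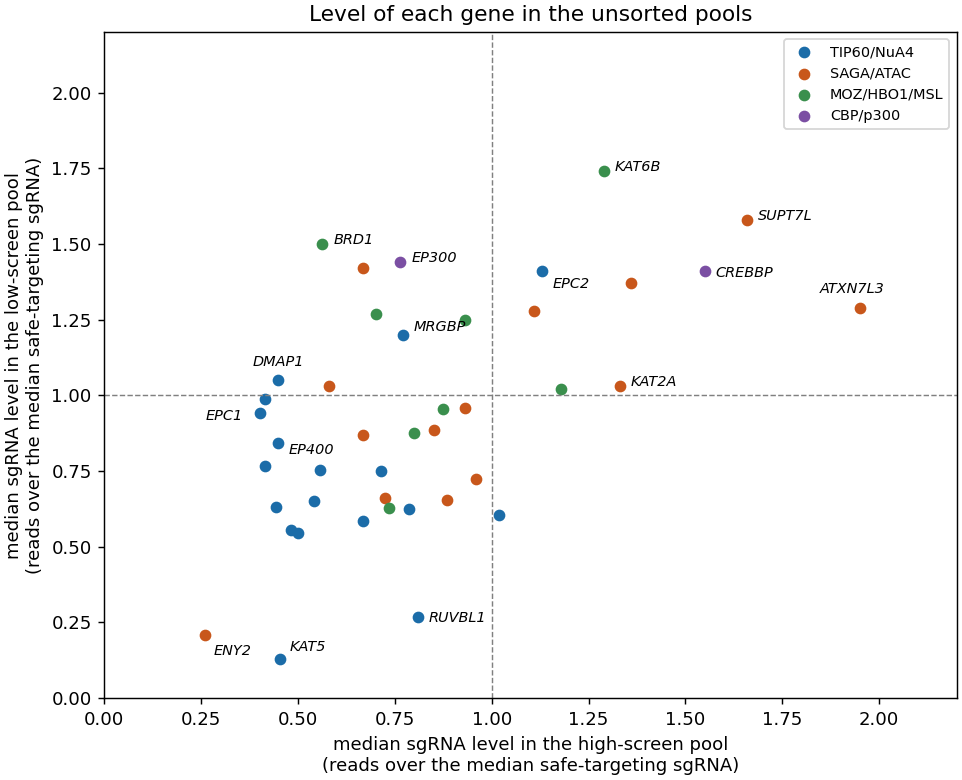
Median sgRNA level of each gene in the high-screen pool (x axis) and in the low-screen pool (y axis), as reads over the median safe-targeting sgRNA of the library, coloured by family, with dashed lines at 1. TIP60/NuA4 points gather in the lower left, where KAT5 (0.454 and 0.130) and the SAGA gene ENY2 (0.259 and 0.207) lie lowest.

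Loss from the low-screen pool was also most frequent in TIP60/NuA4. Of its 172 sgRNAs 20 had no read there, which is 11.6% (exact 95% interval 7.25 to 17.4), beside 6.60% of all gene-targeting sgRNAs and 5.36% of safe-targeting sgRNAs. All 20 had reads in the high-screen pool and 14 had 10 or more, as did 12182 and 9624 of the 12499 gene-targeting sgRNAs absent from the low-screen pool. The share absent from the low-screen pool was 4.41% for SAGA/ATAC, 6.25% for MOZ/HBO1/MSL and 5.00% for CBP/p300. Within TIP60/NuA4 the loss was uneven between genes. In the low-screen pool, reads were seen for 5 of 10 KAT5 sgRNAs and 7 of 10 RUVBL1 sgRNAs, but for all 10 of EPC1, EPC2 and MRGBP. The interval treats sgRNAs as independent and does not cover this clustering by gene.

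A list of 42 further subunits of the same complexes and related acetyltransferases was scored in the same way, and all 42 were in the library. In the sorted library against the high-screen pool RSA called none of them in either direction, with 4 at an unadjusted exact p under 0.05 for enrichment and 3 for depletion, beside 5.24% and 5.68% of all genes. Against the low-screen pool none was called enriched and 1 was called depleted, beside 0.645% and 0.586% of all genes. At an unadjusted exact p under 0.05, 2 were enriched and 6 depleted, beside 5.49% and 5.67% of all genes. The called gene was H2AFZ, which encodes histone H2A.Z, with all 10 sgRNAs below -1, a median of -7.96, an RSA p of 2.05e-04 and an exact adjusted p of 0.566. Its depletion RSA p against the high-screen pool was 0.00906. In the high-screen pool against the low-screen pool H2AFZ had a median of -1.50 and a depletion RSA p of 0.00157. Its values in the sort thus rest on pool levels that differ. Between the unsorted pools none was called higher and 1 was called lower, beside 0.831% and 0.733% of all genes. At an unadjusted exact p under 0.05, 3 were higher and 5 lower, with the same gene counted once on each side, beside 6.61% and 6.29% of all genes. The called gene was SRCAP, the ATPase of another H2A.Z remodeller, with 7 of 10 sgRNAs below -1, an RSA p of 5.89e-04 and an exact adjusted p of 0.574.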

How the data were processed

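The authors deposited raw read counts per sgRNA, without normalization, 1 file per library. According to the methods, constant read sequence was clipped, Bowtie2 aligned the remainder to the sgRNA list, and reads with several alignments were dropped. The submitters' processing notes also name bcl2fastq and cutadapt, and versions are not given in the sources used here. Reads matched to no sgRNA (21.9% in the sorted library, 20.6% and 12.1% in the high-screen and low-screen pools) were left out, and an sgRNA missing from a file was given 0. Each pair of libraries was scaled to the mean of their totals of matched reads before a pseudocount of 1 was added. sgRNAs with at least 10 reads in the control were tested, or in either library between the unsorted pools.

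RSA, which the study used, was run over all sgRNAs, controls included, with tied sgRNAs at the worst rank. Its exact null was computed under random assignment of sgRNAs to genes. Both were tested on counts simulated from the unsorted pools, the exact null also with gene names exchanged among sgRNAs. The simulation did not include the loss of sgRNAs seen in the sorted library, so it does not show how the calls behave under such loss. Shares and CPM have exact Clopper-Pearson 95% intervals, and medians have binomial order-statistic intervals. Counts are PCR reads without molecular identifiers, so intervals cover counting or the sgRNAs sampled, never the spread between libraries. Intervals over sgRNAs treat them as independent and do not cover clustering by gene. Positions come from GENCODE release 44 on GRCh37, matched by gene identifier. Scripts used scipy 1.17.1, pandas 2.3.3, numpy 2.4.6, matplotlib 3.10.9 and Python 3.11.15.

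The genes, the list of further subunits and the tests were chosen with earlier results of these data known. All 42 genes may be named. Values per library were given for called genes, for the acetyltransferases and for the gene with the smallest RSA p of each family, direction and comparison, and further subunits were named only when called. CPM of EPC1, MORF4L1 and RUVBL1 and reads of single sgRNAs against ACTL6A, BRPF1, DMAP1 and RUVBL1 fall outside this rule and were chosen after their values were seen. Alternatives changed the pseudocount, the minimum, the scaling, the call rule, the sgRNAs used and the reference of the pool levels. Sorted libraries other than the HLA-B high sort were not analysed here.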

Additional observations from a re-analysis of the deposited data

How the results depend on the processing

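In the sort against the high-screen pool, MRGBP and EPC2 were called under all alternatives (pseudocount 5, no minimum, a minimum of 30 reads, scaling to safe-targeting reads, at least 4 sgRNAs beyond a log2 ratio of 1, and a best rank beyond a log2 ratio of 0, the last chosen after seeing the data) but 1. Without the most extreme sgRNA of each gene 1 member was called enriched, MRGBP. Against the low-screen pool, asking for 4 sgRNAs beyond a log2 ratio of 1 called 1 member depleted, ATXN7L3. Between the unsorted pools, 0 members were called lower with a pseudocount of 5 (ENY2, RSA p 0.00152), and without the most extreme sgRNA 0 were called higher (KAT5, RSA p 0.00172) and 0 lower (ENY2, RSA p 0.00363). No result changed direction. All 48 values of the share above a log2 ratio of 1 moved by less than their interval, as did 43 of 48 family medians and 10 of 16 pool levels. The 5 medians that moved were those of TIP60/NuA4 (-2.99 and -4.27 against the high-screen and low-screen pools) and MOZ/HBO1/MSL (-3.30 and -5.04) with a pseudocount of 5, and that of TIP60/NuA4 against the high-screen pool with a minimum of 30 reads (-5.65). The 6 pool levels that moved used non-targeting sgRNAs as the reference, under which the TIP60/NuA4 level was 0.312 in the high-screen pool and 0.466 in the low-screen pool.

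Counts over all genes depended on the setting. Without the most extreme sgRNA, enriched calls were 40 instead of 108 and depleted calls 15 instead of 85 against the high-screen pool, 46 instead of 131 and 39 instead of 119 against the low-screen pool, and 46 instead of 169 and 35 instead of 149 between the pools. With a best rank beyond a log2 ratio of 0, enriched calls were 59 against the high-screen pool and 70 against the low-screen pool. With 4 sgRNAs beyond a log2 ratio of 1, depleted calls against the high-screen pool were 144. Leaving out a library was not possible with 1 library per group. No paired analysis was possible because each group holds 1 library. Depth limited the smallest sgRNAs, since 10 reads in the control were needed and 33 of the 408 sgRNAs had fewer than 10 in the high-screen pool.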
